A study of Mus musculus with 6 samples.

Results

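Induced T (iT) cells recovered from mouse spleen were examined here for their cell cycle genes and the inhibitors of cyclin-dependent kinases (CDKs). The set was a fixed list of 52 gene symbols, all found among the 23420 rows of the expression table, and it was divided by the step of the cycle in which each product acts. There were 12 genes of the G1 engine, 4 CDK inhibitors, 14 S phase genes and 22 G2/M genes. Membership was set by name, with no threshold on the values.

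The iT cells came from C57BL/6 pluripotent stem cells of the CD45.2 type with a doxycycline-inducible Runx1-p2a-Hoxa9 cassette in Rosa26 (iR9 cells), and every library of both groups carries this cassette. Doxycycline was added during the culture steps that led to the blood progenitors, and the main transplants were described as done without it, while recipients of another experiment in the same study were fed it, and which holds for the mice behind these libraries was not stated. The progenitors were injected into sublethally irradiated young adult B-NDG mice, whose spleens were taken some weeks later. B-NDG is a CD45.1 NOD strain with the Prkdc Scid mutation and without Il2rg, so the strain in the labels is that of the host and the T cells grew in an animal with few lymphocytes of its own. Spleen iT cells positive for CD4 alone (CD4SP) were compared with those positive for CD8 alone (CD8SP), with 3 libraries of each and 1000 sorted cells per library. The sort took CD45.2+ cells and left out cells with markers of other blood lineages, and wild-type T cells were not analysed here. The study calls its CD4SP and CD8SP iT libraries biological replicates, but the labels do not say whether each came from its own mouse or which share one, so the p-values measure only the spread between these libraries.

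Expression was given as TPM, a measure of transcript abundance that divides reads by transcript length and scales each library to a common total, so levels can be compared between genes. Differences are given as log2(TPM + 1) in CD4SP minus CD8SP libraries, which makes changes at low values look smaller than they are, and genes past both an adjusted p of 0.05 in limma and a 2-fold difference are named as called. The median difference over all 10476 tested genes was 0.28, so most genes lay somewhat higher in CD4SP libraries, and ribosomal protein genes took 23.7 to 28.3% of TPM in CD4SP libraries and 32.0 to 35.3% in CD8SP libraries. Median-of-ratios rescaling, which sets the typical gene of each library to the same level, brought that median to 0.0013, and called or separated genes are also given on that scale. The sorted identity held, since Cd4 stood at 331, 281 and 279 TPM in CD4SP replicates 1, 2 and 3 and at 0.10, 0 and 0 in the CD8SP replicates, and Cd8a at 2.93, 0.32 and 2.20 against 1147, 1161 and 1038. The 7 T cell markers summed to 6445 to 6782 TPM in CD4SP libraries, against 5156 to 5819 in those of CD8SP. The erythroid genes Alas2, Klf1 and Car1, the B cell genes Ms4a1 and Pax5, the NK cell genes Ncr1 and Klra8 and the myeloid genes S100a8, S100a9, Mpo and Elane were listed at 0 in every library. Other genes of these lists were present. The transferrin receptor gene Tfrc of the erythroid list, which dividing cells also use, had 15.5 to 19.9 TPM in CD4SP and 16.0 to 17.1 in CD8SP libraries. Cd79b of the B cell list had 10.9 to 17.4 against 18.5 to 21.6 TPM and Cd22 had 1.45 to 1.67 against 3.91 to 8.03 TPM, called higher in CD8SP libraries (limma adjusted p 0.018). The NK cell sum of 9.88 to 12.0 against 55.1 to 64.5 TPM was mostly Eomes (8.19 to 10.6 against 49.9 to 55.4), a factor that CD8 T cells also use. Eomes and Klrb1c (0.68 to 1.82 against 5.22 to 9.14 TPM) were both called higher in CD8SP libraries (limma adjusted p 5.5e-05 and 0.0043). The myeloid sum of 17.1 to 31.3 against 3.64 to 8.66 TPM was mostly Lyz2 (17.1 to 30.9 against 3.64 to 8.33), called higher in CD4SP libraries (limma adjusted p 0.0087). The sum of 6 immature thymocyte genes, 35.6 to 64.5 against 31.4 to 37.4 TPM, was mostly Cd1d1 (41.8, 31.1 and 58.2 TPM in CD4SP replicates 1, 2 and 3), with Rag1, Rag2, Ptcra and Arpp21 at 1.17 TPM or less. Dntt of this list was present in every library, at 2.94 to 5.70 against 2.65 to 4.36 TPM, and overlapped. The part of these values in the results was not tested.

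A cell enters the cycle when D-type cyclins with CDK4 or CDK6, and then E-type cyclins with CDK2, phosphorylate the retinoblastoma protein and release E2F factors, which switch on genes for DNA replication. Mitotic genes are switched on later, by regulators that act through CCAAT boxes and an element called the cell cycle genes homology region (CHR). The INK4 inhibitors (Cdkn2c and Cdkn2d among them) bind CDK4 and CDK6, and the CIP/KIP inhibitors (Cdkn1a, which encodes p21, and Cdkn1b, which encodes p27) bind cyclin and CDK complexes more widely. In T cells these genes mark the passage from rest to division after antigen receptor and cytokine signals, and cells in cycle and resting cells are mixed in any bulk sample.

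The promoters of the 4 groups differed in the motifs they held. RefSeq windows (GRCm38.p6, 250 bases before to 50 after a start) were at hand for 41 of the 52 genes, and both strands were searched for E2F motifs (TTTCCCGC, TTTGGCGC, TTTCGCGC or TTTGCCGC), CHR elements (TTTGAA or TTCGAA) and the CCAAT box (CCAAT). An E2F motif was found in 6 of 12 S phase promoters (Mcm3, Mcm5, Mcm6, Mcm7, Cdc6 and Cdt1), in 3 of 8 of the G1 engine (E2f2, E2f3 and Cdk2), in 1 of 17 of the G2/M genes (Cdk1) and in 0 of the 4 inhibitors, against 2.3% of all 27025 promoters of this length and 4.5% of the 7769 promoters of tested genes. A CHR element was found in 13 of 17 G2/M promoters, each of which also held a CCAAT box, against 2 of 12 in S phase, 1 of 8 in the G1 engine and 0 of 4 inhibitors. Among all promoters 19.5% held a CHR element and 7.7% held it together with a CCAAT box, and among those of tested genes 14% and 6.0%. Matches overlapped in 4 places, between E2F motifs in Mcm5 and in Mcm6, between an E2F motif and a CCAAT box in Mcm7, and between CCAAT boxes in Ube2c. Such matches are a description of letters and do not show that a factor binds. Only 1 window per gene was searched, and some genes, Cdkn1a and Cdkn2c among them, had 2. A window without a match therefore does not show that the gene's promoter lacks the motif. The windows below, 5′ to 3′ on the gene's strand with every match in capitals, stand for an inhibitor and a G1 kinase that were called below (Cdkn1a at chr17:29090729-29091028, plus strand, and Cdk2 at chr10:128705002-128705301, minus strand), for the replication genes (Mcm6 at chr1:128359656-128359955, minus strand) and for the mitotic genes (Cdk1 at chr10:69352863-69353162 and Ccnb2 at chr9:70421505-70421804, both on the minus strand).
Cdkn1a: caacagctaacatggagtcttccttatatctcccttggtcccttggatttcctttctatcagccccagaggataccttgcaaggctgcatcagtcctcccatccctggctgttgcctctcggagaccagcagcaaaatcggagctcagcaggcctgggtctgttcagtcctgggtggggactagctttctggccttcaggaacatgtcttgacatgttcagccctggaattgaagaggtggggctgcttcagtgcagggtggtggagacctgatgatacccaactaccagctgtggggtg
Cdk2: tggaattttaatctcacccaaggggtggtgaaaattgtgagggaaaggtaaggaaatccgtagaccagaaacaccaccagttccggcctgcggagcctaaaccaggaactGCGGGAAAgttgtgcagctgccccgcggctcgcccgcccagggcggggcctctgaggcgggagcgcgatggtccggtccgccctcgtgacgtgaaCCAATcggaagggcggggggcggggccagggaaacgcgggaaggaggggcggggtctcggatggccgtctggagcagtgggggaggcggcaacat
Mcm6: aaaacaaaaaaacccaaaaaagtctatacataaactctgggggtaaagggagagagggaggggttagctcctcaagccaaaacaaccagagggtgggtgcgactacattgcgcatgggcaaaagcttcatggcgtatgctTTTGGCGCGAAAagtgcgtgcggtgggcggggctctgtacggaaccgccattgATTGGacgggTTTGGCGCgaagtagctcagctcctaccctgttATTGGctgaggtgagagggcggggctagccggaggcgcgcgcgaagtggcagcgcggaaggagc
Cdk1: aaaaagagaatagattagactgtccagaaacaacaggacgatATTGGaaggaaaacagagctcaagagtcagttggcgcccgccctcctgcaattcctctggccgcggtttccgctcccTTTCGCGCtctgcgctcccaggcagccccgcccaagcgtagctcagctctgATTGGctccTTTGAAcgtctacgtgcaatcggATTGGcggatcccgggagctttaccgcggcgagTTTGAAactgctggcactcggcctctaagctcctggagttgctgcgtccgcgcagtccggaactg
Ccnb2: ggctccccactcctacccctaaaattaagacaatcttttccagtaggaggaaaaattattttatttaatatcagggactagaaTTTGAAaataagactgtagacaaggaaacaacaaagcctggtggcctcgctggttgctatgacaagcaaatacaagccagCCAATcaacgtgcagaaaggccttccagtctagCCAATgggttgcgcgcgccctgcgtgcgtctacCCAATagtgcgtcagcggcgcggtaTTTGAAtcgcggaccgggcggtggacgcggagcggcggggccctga
The Cdkn1a window has no capitals, since none of the 3 motifs was found in it. Cdk2 holds 1 E2F motif and 1 CCAAT box, Mcm6 holds 3 E2F motifs and 2 CCAAT boxes, Cdk1 holds 1 E2F motif, 2 CHR elements and 3 CCAAT boxes, and Ccnb2 holds 2 CHR elements and 3 CCAAT boxes.

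**Figure D1:**
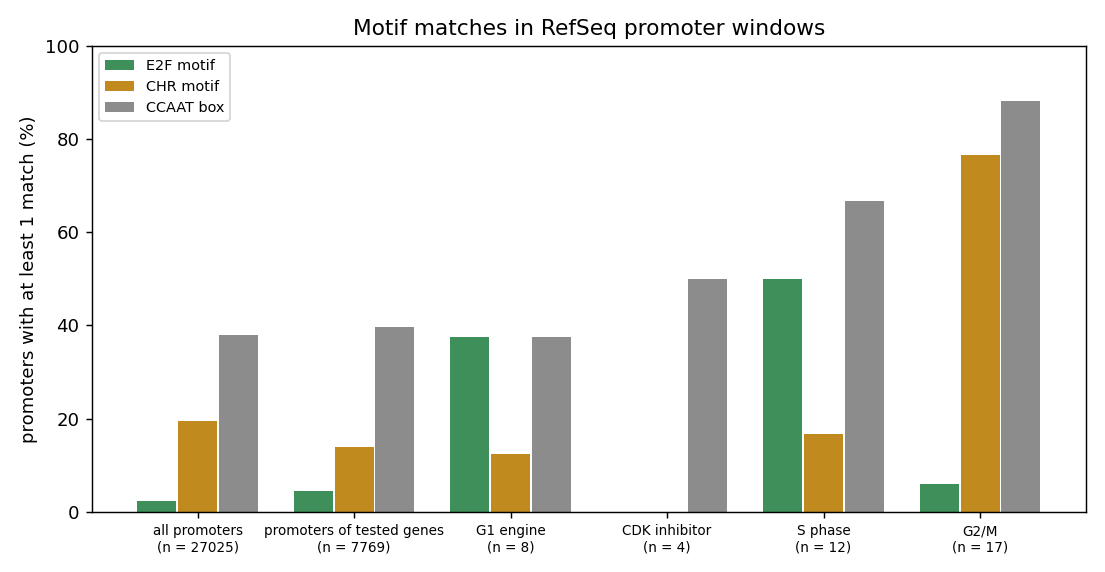
Share of RefSeq promoter windows (%, vertical axis) with at least 1 match to an E2F motif, a CHR element or a CCAAT box, for all promoters, promoters of tested genes and each group, with the number of windows under each. E2F matches stand out in S phase and G1 promoters (50 and 37.5%) and CHR matches in G2/M promoters (76.5%). The 4 inhibitor windows that were searched, 1 per gene, hold neither.

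The comparison of CD4SP with CD8SP iT cells asked which cell cycle genes differ between the T cell populations that the progenitors gave rise to. Of the 52 genes, 51 passed the filter for testing. The 4 called genes, Cdkn1a, Rb1, Ccne2 and Cdk2, were all higher in CD4SP libraries and all belonged to the inhibitors or the G1 engine. Ccne2 passed the filter through its CD4SP values alone, with every CD8SP library under 1 TPM. Its direction was thus set by the filter and counts as no support. Across all tested genes 7.92% were called higher in CD4SP libraries and 1.8% higher in CD8SP libraries, so a share of 4 in 51 lies at the background. No member was called higher in CD8SP libraries by limma, and 1, Cdk4, was lower in CD4SP libraries at an unadjusted p under 0.05. At least 3.23% of all tested genes were so, since that share passed the adjusted p. With the adjusted p alone, 7 members were higher in CD4SP libraries, the added ones being Ccnd2, Cdkn2d and Rrm2, against 17.6% of all tested genes, so that share of 51 lies below the background.

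All 3 CD4SP libraries lay above all 3 CD8SP libraries for 15 members, against 36.6% of all tested genes, and the reverse held for Cdk4 only, against 6.61%. These 15 were all 4 inhibitors, 7 of 11 tested G1 genes, 2 of 14 S phase genes and 2 of 22 G2/M genes. The 7 G1 genes include Ccne2, whose order the filter set. The median difference was 0.82 for the inhibitors, 0.42 for the G1 engine, 0.06 for S phase and 0.20 for G2/M, beside 0.28 for all tested genes. That of the G1 engine was 0.28 without CD4SP replicate 1 and 0.26 with a filter of 5 TPM for testing. After rescaling the medians were 0.53, 0.12, -0.24 and -0.09. On that scale the CD4SP libraries lay above for 9 members and the CD8SP libraries for 8, against 19% and 17.7% of all tested genes, and Cdkn1a alone was called (4.67% of genes were then called higher in CD4SP and 2.85% in CD8SP libraries).

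**Figure D2:**
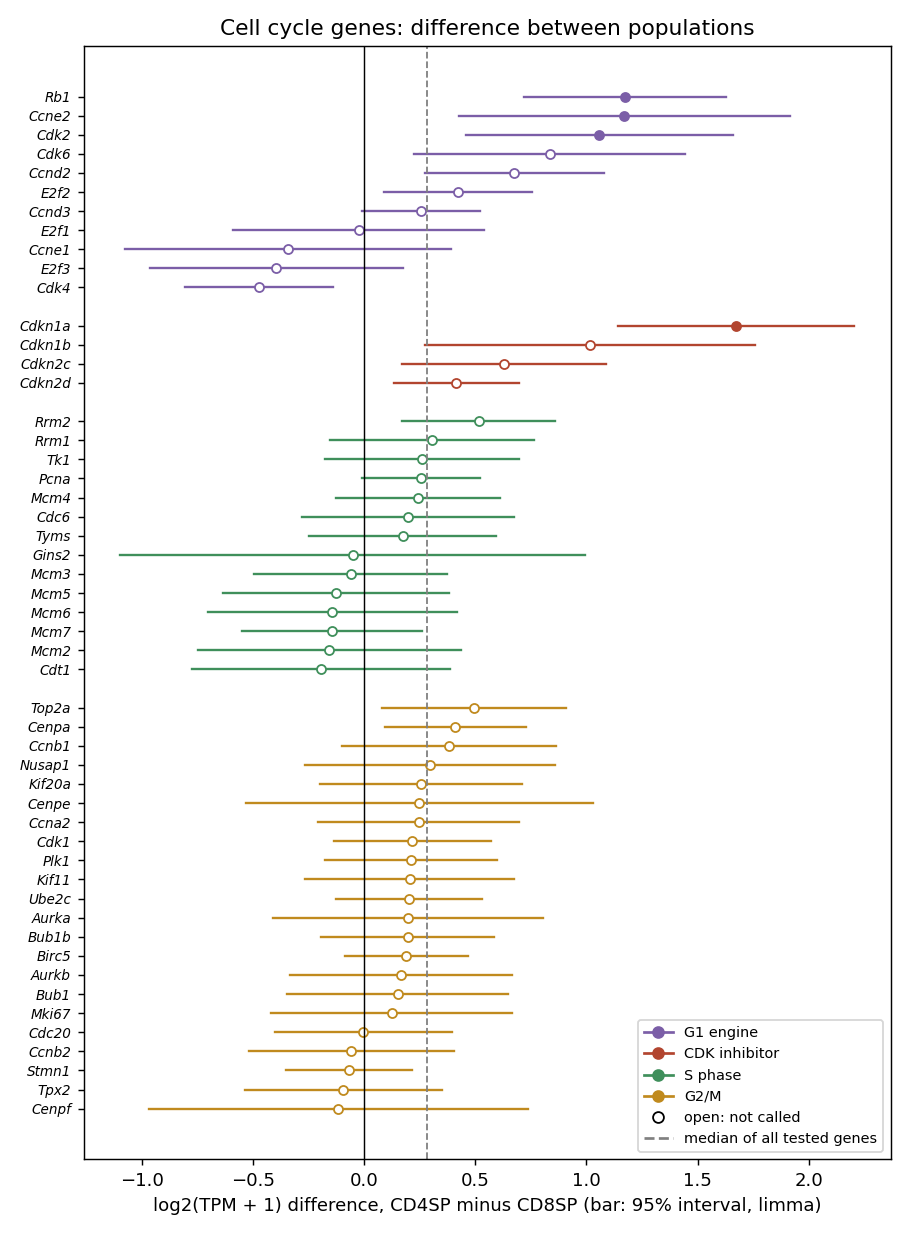
Difference in log2(TPM + 1), CD4SP minus CD8SP, for the 51 tested members in order within each group, with limma 95% intervals; filled points are called genes and the dashed line is the median of all tested genes. The 4 inhibitors lie to the right of that line at 0.41 to 1.67, while S phase genes range from -0.19 to 0.51 and G2/M genes from -0.12 to 0.49.

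Cdkn1a was the CDK inhibitor that was called. The 3 CD4SP libraries lay above the 3 CD8SP libraries for all 4 inhibitors as deposited, against 36.6% of tested genes, and for Cdkn1a and Cdkn2c after rescaling, against 19%. Cdkn1a (chr17:29090976-29100727, plus strand, GRCm38), which encodes p21, had 11.7, 18.1 and 14.2 TPM in CD4SP replicates 1, 2 and 3 and 3.36, 3.58 and 4.72 TPM in the CD8SP replicates. The lowest CD4SP library was thus well above the highest CD8SP library. The difference was 1.67 (SE 0.23, limma adjusted p 0.0022). It was called under each of the 16 alternatives, and stood at 1.40 after rescaling.

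Cdkn1b (chr6:134920401-134925513, plus strand), which encodes p27, a protein abundant in resting lymphocytes, had 15.2, 37.3 and 37.9 TPM in the CD4SP libraries, against 12.5, 13.6 and 13.8 TPM in those of CD8SP. CD4SP replicate 1 stood near the CD8SP level and the other two at well over it, and the difference of 1.02 (SE 0.32) did not pass the test (limma adjusted p 0.058). Without CD4SP replicate 1 it was 1.44 and called (limma adjusted p 0.0029), and after rescaling the populations overlapped (0.73, adjusted p 0.21). Tnfrsf9, an activation receptor of the regulatory T cell list, stood apart in the same library, with 21.6, 111 and 115 TPM against 24.2, 22.2 and 15.3, and its part in the Cdkn1b values was not tested.

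The INK4 genes showed smaller differences at higher levels. Cdkn2c (p18, chr4:109660876-109667189, minus strand) had 43.2, 35.3 and 39.0 TPM in CD4SP against 28.8, 28.7 and 18.5 in CD8SP libraries, a difference of 0.63 (limma adjusted p 0.057). Cdkn2d (p19, chr9:21288410-21291407, minus strand), by mean level the most abundant inhibitor in both populations, had 208, 176 and 170 TPM against 142, 142 and 130, a difference of 0.41 that passed the adjusted p (0.045, limma) but not the 2-fold limit. After rescaling the difference was 0.33 for Cdkn2c and 0.11 for Cdkn2d, neither passed, and Cdkn2d overlapped (175, 176 and 143 against 153, 150.4 and 152). The 4 inhibitors together summed to 279, 267 and 261 TPM in the CD4SP libraries, against 187, 188 and 167 TPM in those of CD8SP, most of it Cdkn2d (234, 266 and 219 against 201, 199 and 195 after rescaling). In bulk samples a larger share of cells that express a gene cannot be told apart from more of its RNA per cell, and this holds for every gene here. The inhibitors were measured beside other differences between the populations. A list of 7 early activation genes summed to 486 to 506 TPM in CD4SP libraries against 253 to 254 TPM in those of CD8SP. Of these, 4 were called higher, against 7.92% of all tested genes. The most abundant, Cd69 (228 to 270 against 151 to 172 TPM), was not called, and Myc overlapped (8.29 to 12.4 against 9.02 to 14.8 TPM). The 9 regulatory T cell genes summed to 2990 to 3316 against 350 to 414 TPM, with 7 called higher. Both lists are given as deposited only, and their part in the inhibitor values was not tested.

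**Figure D3:**
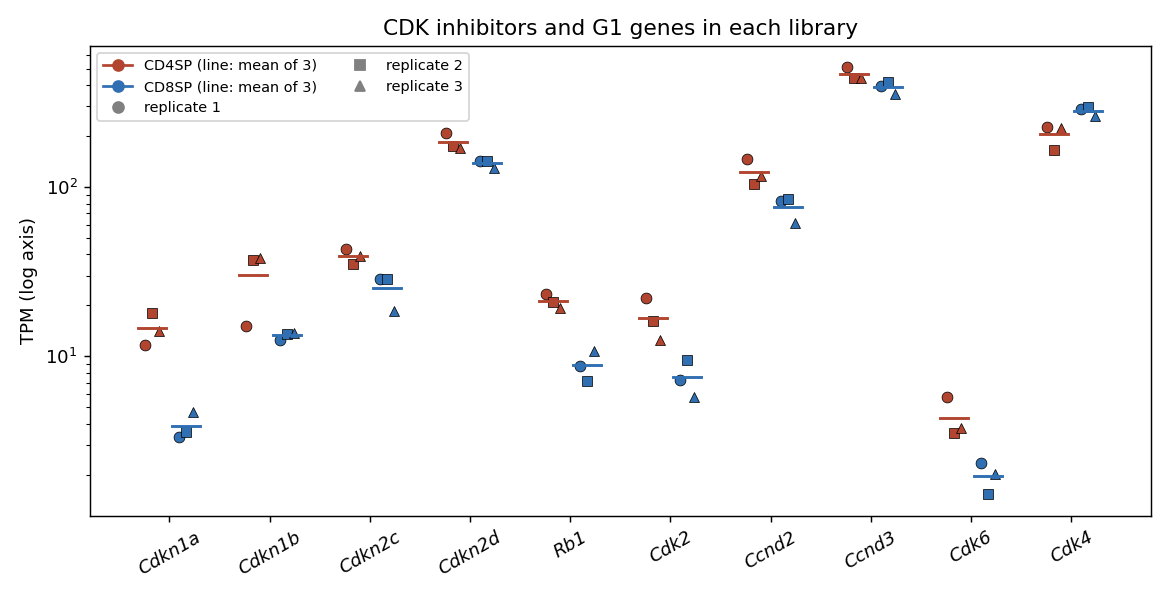
TPM (log axis) of the 4 CDK inhibitors and 6 G1 genes in each of the 3 CD4SP and 3 CD8SP libraries, with lines at the means. CD4SP points lie above CD8SP points in every gene shown except Cdk4, where the order is reversed, and Cdkn1b of CD4SP replicate 1 (15.2 TPM) sits close to the CD8SP values.

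In the G1 engine Cdk4 and Cdk6 lay in opposite orders between the populations, while Rb1 and Cdk2 were called higher in CD4SP libraries. Ccne2 was also called, but it passed the filter through the CD4SP libraries alone. Cdk4, a partner of the D-type cyclins, had 228, 166 and 224 TPM in the CD4SP libraries, against 291, 296 and 263 TPM in those of CD8SP. Cdk6, its close relative, had 5.73, 3.54 and 3.76 TPM in the CD4SP libraries, against 2.35, 1.53 and 2.02 TPM in those of CD8SP. The differences were -0.47 for Cdk4 (limma adjusted p 0.052) and 0.83 for Cdk6 (limma adjusted p 0.058), so neither passed on its own. After rescaling that of Cdk4 was -0.78 with an adjusted p of 0.0018 in limma, still under 2-fold, and that of Cdk6 was 0.60 (0.15).

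Cdk2 (chr10:128697939-128705031, minus strand), the kinase of the G1 to S transition, had 22.1, 16.2 and 12.4 TPM in CD4SP against 7.25, 9.57 and 5.77 TPM in CD8SP libraries. The libraries did not overlap and the difference was 1.06 (SE 0.26, limma adjusted p 0.025). This call was lost in 6 of the 16 alternatives, among them rescaling (0.78, adjusted p 0.073) and the fits without CD4SP replicate 1, CD8SP replicate 1 or CD8SP replicate 3. Over the 6 fits with 1 library left out it lay between 0.86 and 1.25.

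Of its cyclin partners, Ccne1 had 55.9, 25.3 and 49.9 TPM in the CD4SP libraries, against 68.2, 58.2 and 37.1 TPM in those of CD8SP, which overlapped (-0.34, 95% interval -1.08 to 0.39), as they did after rescaling (-0.64, limma adjusted p 0.15). With 1 library left out the Ccne1 difference ran from -0.59 (without CD8SP replicate 3) to -6.3e-05 (without CD4SP replicate 2). Ccne2 (chr4:11191351-11204779, plus strand) was far lower, at 2.54, 1.49 and 1.39 TPM against 0.13, 0.63 and 0, a difference of 1.17 (SE 0.33, limma adjusted p 0.037) that was 1.05 after rescaling (adjusted p 0.060) and 2.84 with a pseudocount of 0.1 (SE 0.89, adjusted p 0.059). Ccne2 is thus called near the lower limit of the table, and the call was lost in 8 alternatives with no value in another 4. It was tested only because all 3 CD4SP libraries reached 1 TPM, which no CD8SP library did. The filter thus set the direction of its call. Ccne2 also shares 17.4% of its exon bases with Ints8 on the other strand (10.8, 15.7 and 14.3 against 8.51, 9.27 and 6.06 TPM), and strand use was not stated.

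Rb1 (chr14:73183673-73325822, minus strand), which encodes the retinoblastoma protein that holds E2F factors back, had 23.2, 20.9 and 19.3 TPM in the CD4SP libraries, against 8.77, 7.15 and 10.8 TPM in those of CD8SP. The populations stood well apart, with a difference of 1.17 (SE 0.20, limma adjusted p 0.0053). After rescaling it was 0.89 and kept an adjusted p of 0.025 in limma, under the 2-fold limit. Small parts of its exons overlap Rcbtb2 (8.1%) and Lpar6 (6.8%) on the other strand. Both of those genes were also above in all CD4SP libraries, with 48.9, 30.9 and 50.04 against 28.0, 24.995 and 26.3 TPM for Rcbtb2 and 38.7, 33.0 and 45.6 against 17.7, 17.1 and 21.0 TPM for Lpar6.

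Among the D-type cyclins Ccnd3 was the most abundant, with 511, 443 and 444 TPM in the CD4SP libraries, against 398, 420 and 353 TPM in those of CD8SP. Ccnd2 had 146, 105 and 117 TPM against 82.5, 85.1 and 61.7 TPM. Ccnd1, which T cells hardly use, had 0.85, 0.31 and 0.80 TPM against 0.46, 0.64 and 0, and was the member that was not tested. Ccnd2 passed the adjusted p but not 2-fold (0.67, limma adjusted p 0.030; 0.37 and 0.10 after rescaling), while Ccnd3 differed by 0.26 (adjusted p 0.15) and by -0.05 after rescaling. The ratio of Ccnd3 to Ccnd2 was 3.50, 4.22 and 3.81 in the CD4SP libraries, against 4.82, 4.93 and 5.72 in those of CD8SP. Of the activating E2F factors, E2f2 was the most abundant, at 44.4, 36.1 and 43.4 TPM against 29.6, 31.0 and 30.7 TPM, a difference of 0.42 that did not pass (limma adjusted p 0.072) and was 0.12 after rescaling. E2f1 lay between 4.998 and 8.15 TPM and E2f3 between 2.99 and 6.56 TPM over the 6 libraries, and both overlapped. After rescaling E2f3 had 4.54, 4.34 and 2.51 against 5.69, 5.85 and 7.68, with all CD8SP libraries above, a difference of -0.65 that did not pass (limma adjusted p 0.13).

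Of the S phase genes none was called, with 1, Rrm2, passing an unadjusted or an adjusted p of 0.05 in limma. Over the 16 alternatives the lowest limma adjusted p was also under 0.05 for Pcna (0.024), Rrm1 (0.031), Gins2 (0.038), Mcm4 (0.045) and Mcm7 (0.047, toward CD8SP after rescaling). Pcna, the sliding clamp of DNA polymerases, was the most abundant of all 52 members at a mean of 469 TPM, above 97.3% of tested genes. It had 566, 446 and 522 TPM in the CD4SP libraries, against 421, 435 and 424 TPM in those of CD8SP, without overlap, yet the difference of 0.25 did not pass (limma adjusted p 0.15) and was -0.05 after rescaling. Rrm2, the regulated subunit of ribonucleotide reductase, which makes deoxynucleotides, had 140, 99.1 and 112 TPM against 81.4, 84.5 and 76.3 TPM, a difference of 0.51 (limma adjusted p 0.043) that was 0.21 after rescaling (adjusted p 0.25). Its partner subunit Rrm1 overlapped between the populations at 38.6 to 66.1 TPM.

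The minichromosome maintenance genes Mcm2 to Mcm7 encode the 6 subunits of the replicative helicase that is loaded at origins with the help of Cdc6 and Cdt1. Mcm6 had 191, 93.7 and 148 TPM in the CD4SP libraries, against 158, 175 and 129 TPM in those of CD8SP. Mcm2 had 76.0, 35.5 and 61.2 TPM against 64.9, 66.7 and 53.2 TPM. Cdt1 had 102, 48.8 and 77.3 TPM against 91.6, 90.6 and 69.8 TPM. In these 3 genes CD4SP replicate 2 was the lowest of all 6 libraries and CD4SP replicate 1 the highest, so the populations overlapped. The helicase genes differed by -0.16 (Mcm2) to 0.24 (Mcm4), and the 95% interval for Mcm6 ran from -0.70 to 0.42. After rescaling Mcm7 had 85.8, 66.0 and 71.5 rescaled TPM in the CD4SP libraries, against 109, 100.4 and 95.1 in those of CD8SP, a difference of -0.45 that passed the adjusted p (0.047, limma) but not 2-fold. Mcm3 likewise had all CD8SP libraries above then (-0.36), without passing (limma adjusted p 0.11). Such an order held for 14.3% of the S phase genes after rescaling, against 17.7% of all tested genes. The remaining S phase genes were Tk1 and Tyms, enzymes of thymidine nucleotide synthesis, at 71.7 to 124 and 28.9 to 45.2 TPM, Cdc6 at 5.86 to 9.30 TPM and Gins2, a subunit of the GINS helicase cofactor, at 8.24 to 36.8 TPM.

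None of the 22 G2/M genes was called and none passed an adjusted p of 0.05 in limma. An unadjusted p under 0.05 was found for 2, Top2a and Cenpa. At least 17.6% of all tested genes reached that toward CD4SP, since that share passed the adjusted p. Top2a, the topoisomerase that untangles replicated chromosomes, had 45.8, 35.3 and 53.4 TPM in the CD4SP libraries, against 29.1, 30.003 and 34.6 TPM in those of CD8SP, a difference of 0.49 (limma adjusted p 0.087). Cenpa, the histone of centromeres, had 200, 146 and 180 TPM against 137, 127 and 128 TPM, a difference of 0.41 (limma adjusted p 0.069). These were the G2/M genes in which the libraries did not overlap, and after rescaling both overlapped. Over the 16 alternatives the lowest limma adjusted p was under 0.05 for Cenpa (0.012), Top2a (0.018), Ccnb1 (0.020) and Stmn1 (0.023, toward CD8SP after rescaling).

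Mki67, which encodes the proliferation antigen Ki-67, had 22.4, 14.1 and 27.2 TPM in the CD4SP libraries, against 17.5, 19.3 and 19.4 TPM in those of CD8SP. CD4SP libraries lay on both sides of the CD8SP values, and the difference was 0.12 with a 95% interval of -0.42 to 0.67. Cdk1, the kinase that drives mitosis, had 26.1, 23.9 and 26.7 TPM against 20.3, 21.1 and 24.3 TPM (0.22, limma adjusted p 0.34). Of its cyclins, Ccnb2 had 127, 90.6 and 163 TPM against 125, 141 and 121 TPM, Ccnb1 had 47.5, 32.8 and 59.1 TPM against 36.1, 33.4 and 33.9 TPM, and Ccna2 lay between 66.5 and 116 TPM. In Ccnb2, Ccnb1 and Mki67 CD4SP replicate 2 was the lowest of the 6 libraries and CD4SP replicate 3 the highest. The Cdk1 and Ccnb2 promoters printed above are among the 13 of this group that hold CHR elements with CCAAT boxes.

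The other G2/M genes spanned a wide range of levels without a called difference. The tubulin regulator Stmn1 (279 to 359 TPM) and Ube2c, the ubiquitin conjugating enzyme of the anaphase-promoting complex (174 to 247 TPM), were the most abundant, followed by the survivin gene Birc5 (139 to 178 TPM). After rescaling all CD8SP libraries lay above for Stmn1, Tpx2, Cdc20 and Birc5, at differences of -0.37, -0.38, -0.30 and -0.11. These are 18.2% of the G2/M genes, near the 17.7% of all tested genes. Stmn1 alone of these passed the adjusted p (0.023, limma), under 2-fold, while 7.45% of all tested genes passed it toward CD8SP. The anaphase activator Cdc20 (38.1 to 55.3 TPM), the mitotic kinases Plk1 (29.2 to 44.6), Aurkb (29.5 to 55.1), Aurka (10.2 to 19.0), Bub1b (15.4 to 21.9) and Bub1 (6.18 to 9.33) and the spindle genes Nusap1 (15.2 to 28.7), Tpx2 (14.3 to 21.5), Kif11 (7.73 to 11.0) and Kif20a (7.97 to 13.0) overlapped between the populations as deposited. The kinetochore genes Cenpe and Cenpf lay lowest, at 1.74 to 5.01 and 1.06 to 4.59 TPM. The sum over all G2/M genes was 1538, 1244 and 1648 TPM in the CD4SP libraries, against 1300, 1347 and 1333 TPM in those of CD8SP, and that over S phase genes 1755, 1148 and 1470 against 1378, 1406 and 1208 TPM. The order of the means turned after rescaling, with G2/M sums of 1295, 1241 and 1384 against 1398, 1429 and 1560, which did not overlap, and S phase sums of 1478, 1145 and 1235 against 1482, 1491 and 1413, which did.

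Which CD4SP library was highest or lowest differed between the groups. CD4SP replicate 2 was the lowest of the 3 CD4SP libraries in 12 of 14 S phase genes (85.7%) and 18 of 22 G2/M genes (81.8%), against 57.9% of all tested genes. This library was the lowest in 7 of 11 tested G1 genes (63.6%), but in 1 of the 4 inhibitors. In this library ribosomal protein genes took 28.3% of TPM, against 23.7 and 24.0% in the other CD4SP libraries, and 10329 genes reached 1 TPM, against 10594 and 10649, and the part of this in the pattern was not tested. CD4SP replicate 1 was the highest of the 3 in all 11 tested G1 genes and in 12 of 14 S phase genes, and CD4SP replicate 3 in 13 of 22 G2/M genes and 1 of 14 S phase genes, against 39.8% and 40.4% of all tested genes. After rescaling CD4SP replicate 2 was lowest in 64.3% of S phase, 59.1% of G2/M and 36.4% of G1 genes and in 0 inhibitors, against 38% of all tested genes. Replicate 1 was then highest in 9 of 11 G1 and 12 of 14 S phase genes, against 31.4%, and replicate 3 in 11 of 22 G2/M genes, against 31.1%. The median S phase gene of CD4SP replicate 2 differed by -0.51 from the mean of the other CD4SP libraries on the log2 scale (-0.27 after rescaling). The median was -0.33 (-0.09 after rescaling) for G2/M genes, -0.28 (-0.07) for G1 genes and 0.18 (0.42) for inhibitors. All tested genes had a median of -0.23 (0 after rescaling). These are counts within 3 libraries of genes that share their library, and were not tested.

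**Figure D4:**
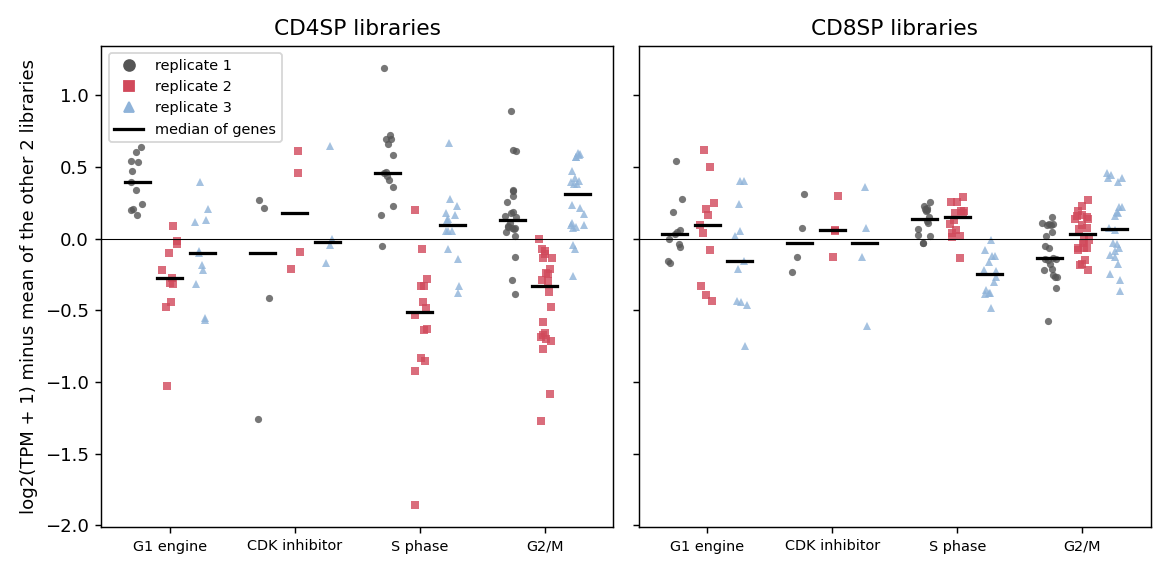
Difference in log2(TPM + 1) of each gene in 1 library from the mean of the other 2 libraries of its population (vertical axis), for CD4SP (left) and CD8SP (right) libraries by group, as deposited, with bars at medians. CD4SP replicate 2 has medians of -0.51 in S phase and -0.33 in G2/M, replicate 1 lies highest in S phase (0.46) and replicate 3 in G2/M (0.31), and the CD8SP medians lie between -0.25 and 0.15 in every group.

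Leaving out CD4SP replicate 2 moved the median S phase difference from 0.06 to 0.17 and that of G2/M from 0.20 to 0.29. Other libraries moved them the other way, with an S phase median of -0.080 without CD4SP replicate 1 and -0.0032 without CD8SP replicate 3, and a G2/M median of 0.11 without CD4SP replicate 3. The median over all tested genes moved the same way in these fits, from 0.28 to 0.36 without CD4SP replicate 2 and to 0.24 in the other 3. Without CD4SP replicate 2, 11 members changed sign (Mcm2, Mcm3, Mcm5, Mcm6, Mcm7, Cdt1, Gins2, Ccnb2, Cenpf, Stmn1 and E2f1). The 4 calls became 3, since Ccne2 could not be tested then. Regulatory T cell genes as a whole did not set this library apart (a sum of 2990 TPM against 3280 and 3316), but Foxp3, which defines that lineage, had 142, 6.56 and 167 TPM in CD4SP replicates 1, 2 and 3 and 7.48, 7.48 and 10.05 TPM in the CD8SP replicates, so it was low in the same library. The part of that difference in the cell cycle values was not tested. The S phase gene with the widest gap, Gins2 in CD4SP replicate 2 (36.8, 8.24 and 28.7 against 23.9, 20.2 and 20.8 TPM), is uncertain, because 67.3% of its exon bases lie opposite Gse1, which moved the same way (19.7, 2.69 and 18.5 against 11.7, 11.6 and 12.3 TPM). Without Gins2 CD4SP replicate 2 was the lowest in 11 of 13 S phase genes with a median of -0.49.

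A further list of 115 cell cycle genes of the same pathways was measured beside the members, of which 113 were tested, 2 were called, both higher in CD4SP libraries and well under the background of 7.92% of all tested genes, and 0 were called lower by limma (1, Racgap1, at an unadjusted p under 0.05). Rbl2, which encodes the pocket protein p130 of resting cells, had 107, 63.7 and 101 TPM in the CD4SP libraries, against 40.0, 42.1 and 38.3 TPM in those of CD8SP (1.12, limma adjusted p 0.0066). Lin54, the subunit of the DREAM complex that binds CHR elements, had 7.18, 7.83 and 7.13 TPM against 2.47, 2.60 and 3.63 TPM (1.11, limma adjusted p 0.011). Both were separate between the populations, and after rescaling both were under 2-fold at 0.82 and 0.86, with adjusted p of 0.0086 and 0.043 in limma.

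Racgap1, a regulator of cytokinesis, was the gene of that list that passed the adjusted p in the other direction as deposited, against 3.23% of all tested genes, at 69.9, 64.3 and 73.1 TPM in CD4SP against 113, 121 and 112 TPM in CD8SP libraries. At -0.73 it passed the adjusted p (0.0043, limma) but not 2-fold, and after rescaling it was called at -1.03 (adjusted p 0.00048). With the adjusted p alone 7 genes of the list were higher in CD4SP libraries, against 17.6% of all tested genes, the others being the phosphatase Cdc25a, the checkpoint gene Mad2l1, the spindle midzone gene Prc1, the condensin gene Smc4 and the histone variant H2afz, by 0.49 to 0.87. After rescaling these 5 differed by 0.19 to 0.56 and none passed (limma adjusted p 0.054 for Smc4 to 0.28). On that scale 2 genes of the list passed the adjusted p toward CD4SP and 5 toward CD8SP, against 8.45% and 7.45% of all tested genes. Beside Racgap1 these 5 were the tubulin gene Tubb5 (-0.43, limma adjusted p 0.015), the Cdk1 inhibitory kinase gene Pkmyt1 (-0.38, 0.034), the chromatin assembly gene Chaf1b (-0.68, 0.037) and the DNA polymerase epsilon gene Pole (-0.68, 0.040). The CD4SP libraries all lay above for 28 genes of the list and the CD8SP libraries for 2 as deposited, against 36.6% and 6.61% of all tested genes, and for 7 and 17 after rescaling, against 19% and 17.7%. Of the 113 genes these are 24.8% and 1.77%, then 6.19% and 15%, each below the share over all genes. Of the remaining inhibitor genes Cdkn1c was listed at 0 in every library, Cdkn2a had 0.89, 0 and 0 TPM in the CD4SP libraries, against 0.60, 0 and 0 TPM in those of CD8SP, and Cdkn2b had 4.64, 0.56 and 5.90 against 2.08, 2.75 and 2.69 TPM. CD4SP replicate 2 was the lowest CD4SP library in 25 of 32 further origin and fork genes (78.1%) and 33 of 48 further mitosis genes (68.8%). The counts were 6 of 13 further inhibitor, pocket protein and DREAM genes (46.2%) and 8 of 15 further kinase and phosphatase genes (53.3%). Among the further E2F, MYB and FOXM1 regulators it was 4 of 5 (80%), and among all tested genes 57.9%. After rescaling these shares were 62.5, 43.8, 23.1, 40 and 60%, against 38%.

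Some values depend on how reads of similar sequences were divided, which was not stated. Stretches of 200 nt or more in another gene's transcript that match by 95% or more, overlapping genes included, were found for 18 members, among them processed copies of Ccnb1, Pcna, Stmn1, Cdc6 and Mcm7. Besides those named above, Kif20a shares 29.3% of its exon bases with Cdc23, Ube2c 22.8% with Tnnc2 (listed at 0), Cdk4 19.7% with Tspan31, Ccna2 12.5% with Exosc9 and Cdkn1a 7.7% with AC167363.2, all on the other strand. Tspan31 had 77.5, 66.1 and 79.5 TPM in the CD4SP libraries, against 65.6, 66.4 and 51.3 TPM in those of CD8SP, and so did not share the order of Cdk4.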

How the data were processed

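RNA was measured in 3 CD4SP and 3 CD8SP libraries of 1000 sorted spleen iT cells, grouped by the sample titles. The authors amplified the cDNA (Discover-sc WTA kit), made libraries with a transposase kit, aligned reads to mm10 with HISAT2 and estimated expression with StringTie; the deposited values are TPM, 1 column per library. The annotation, strand use and treatment of duplicates are not given in the sources used here. TPM keep no depth, so the depth is unknown and no counting interval or floor was computed.

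The 10476 genes that reached 1 TPM in 3 or more libraries were fitted as log2(TPM + 1) in limma 3.58.1 (R 4.3.3; lmFit, eBayes with trend) with population as the only term, two-sided, with Benjamini-Hochberg adjustment over all of them. A gene was called at an adjusted p under 0.05 and over 2-fold, thresholds taken from the study; TPM are not counts, so no count test was run. On simulated data of 10476 genes, 66% of genes changed by 1.5 on the log2 scale and 82% changed by 2 were recovered, with 3 false calls. The simulated libraries held random spread around each gene's mean and no shift of whole libraries, which the real data have. That count thus does not cover false calls from such shifts, and changes under 1.5 were not simulated. Alternatives were quantile normalization, median-of-ratios rescaling, removal of 82 ribosomal protein genes, a pseudocount of 0.1, a filter of 5 TPM or none, a replicate block, the adjusted p alone, no trend, CD8SP replicates 1 and 2 averaged, and leaving out each library. All members were described by phase, with library values for called or separated genes; other genes were named where called or where a result turned on them. Members and lists were chosen with earlier results of these data known. Promoters are from RefSeq (GRCm38.p6), the window nearest a gene's outermost annotated start, positions and overlaps from GENCODE M21 (GRCm38, the assembly of mm10), and copies from blastn 2.17.0. Some windows, those of Cdk6, E2f1 and Cdkn2c among them, lie inside the GENCODE bounds of their genes. Kif20a was left out of the promoter search, and some marker genes are not reported here.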

Additional observations from a re-analysis of the deposited data

How the results depend on the processing

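Depth is unknown and limits low genes such as Ccne2 most. Cdkn1a was called in all 16 alternatives, between 1.31 and 1.88, and no member was called higher in CD8SP libraries in any. The number of members called higher in CD4SP libraries, 4, became 1 (Cdkn1a) with median-of-ratios rescaling, 1 with quantile normalization and 7 with the adjusted p alone, and 2 to 3 with 1 library left out. Of the other calls Rb1 was lost under those rescalings only (0.89 and 0.82, under 2-fold), Cdk2 in 6 alternatives, and Ccne2 in 8, with no value under the filter of 5 TPM and without any 1 CD4SP library. The 1019 genes called in all became 2183 with the adjusted p alone and 752 to 1042 with 1 library left out, and the share of calls toward CD4SP went from 81.5% to 62.1% with median-of-ratios rescaling and 57.1% with quantile normalization. The 2 other cell cycle genes called became 1 with median-of-ratios rescaling (Racgap1, toward CD8SP, with Rbl2 and Lin54 lost), 0 with quantile normalization, 1 without ribosomal protein genes, 8 with the adjusted p alone, 1 with CD8SP replicates 1 and 2 averaged and 1 to 6 with 1 library left out. The labels do not give pairs, so the replicate numbers were not taken as pairs. Deviations of same-numbered libraries from their population means had correlations of 0.052, -0.017 and 0.089. With 3 libraries per population, these values cannot show whether same-numbered libraries came from 1 mouse. With the replicate block 4 members were called, Cdkn1b (adjusted p 0.039, limma) taking the place of Ccne2 (0.067), and 997 of all genes. Small differences changed sign as the median of all genes went from 0.28 to 0.0013 under median-of-ratios rescaling and -0.015 under quantile normalization. The log2 differences that did so were, under median-of-ratios rescaling, Aurka -0.091, Aurkb -0.13, Birc5 -0.11, Bub1 -0.12, Bub1b -0.095, Ccna2 -0.059, Ccnd3 -0.050, Cdc6 -0.072, Cdk1 -0.078, Kif11 -0.074, Kif20a -0.020, Mcm4 -0.061, Mki67 -0.17, Pcna -0.052, Plk1 -0.089, Tk1 -0.043, Tyms -0.13 and Ube2c -0.10; under quantile normalization, Aurka -0.14, Aurkb -0.12, Birc5 -0.020, Bub1 -0.23, Bub1b -0.14, Cdc6 -0.18, Cdk1 -0.098, Cenpe -0.11, Kif11 -0.17, Kif20a -0.11, Mcm4 -0.033, Mki67 -0.20, Nusap1 -0.038, Plk1 -0.078, Tyms -0.13 and Ube2c -0.00093; without ribosomal protein genes (median 0.15), Mki67 -0.025; and with CD8SP replicates 1 and 2 averaged, Cdc20 0.044 and Mcm3 0.0023. With 1 library left out the differences that changed sign ranged, for Aurkb -0.039 to 0.40, Ccnb2 -0.26 to 0.16, Cdc20 -0.14 to 0.13, Cdt1 -0.43 to 0.091, Cenpf -0.41 to 0.31, E2f1 -0.17 to 0.13, Gins2 -0.45 to 0.57, Mcm2 -0.39 to 0.15, Mcm3 -0.19 to 0.12, Mcm5 -0.32 to 0.085, Mcm6 -0.37 to 0.14, Mcm7 -0.29 to 0.016, Mki67 -0.071 to 0.38, Stmn1 -0.13 to 0.029 and Tpx2 -0.18 to 0.058. In fits that leave a population 2 libraries, the spread is pooled over both. The cause of these changes was otherwise not tested.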
